A study of Mus musculus with 12 samples.

Results

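The Enpp family of ectonucleotide pyrophosphatases and phosphodiesterases was followed along the mouse cochlea, from the apical over the middle to the basal turn. Its members here were the 6 genes Enpp1 to Enpp6, taken as every non-control probe whose gene name in the array files was one of these symbols. This gave 6 of 19505 genes and 82 of 165865 probes. Enpp6 was chosen by its high signal in the base, so its differences between turns are given as a description with no test. The tissue came from male C57BL/6 mice aged 6 weeks, and the labels mention no treatment and no engineered allele. Each of the 3 groups (apex, middle, base) held 4 arrays of total RNA from a dissected turn. The turn included the spiral ganglion neurons, the organ of Corti, and the lateral wall with the stria vascularis and spiral ligament. Because 4 mice supplied all 3 turns and the labels do not tie the arrays to single mice, the p-values measure the spread between these arrays. Every turn was hybridized on its own slide, so slide and turn cannot be told apart.

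Each value is a fluorescence intensity scaled to the 75th percentile of its array, which before scaling lay between 534 and 721.6. Between 77.4% and 81.4% of the probe spots of an array were well above background, and the lowest such signal lay between 24.7 and 35.8 after scaling. A gene's signal is the mean over its probes on the log2 scale. The brightness of a probe also depends on its sequence, so levels are compared between turns and not between genes. A gene or probe is called between a pair of turns when the adjusted p of the moderated contrast was under 0.05. In RNA from whole turns, fewer cells of a type and less RNA per cell cannot be told apart.

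Enpp proteins split phosphodiester or pyrophosphate bonds, mostly outside the cell or at its surface. Enpp1 releases pyrophosphate, an inhibitor of mineral deposition, from ATP, and Enpp3 also cleaves extracellular nucleotides. Enpp4 acts on dinucleotides such as diadenosine triphosphate. Enpp2, also known as autotaxin, is secreted and makes the lipid mediator lysophosphatidic acid from lysophosphatidylcholine, and Enpp6 is a choline-specific phosphodiesterase that releases phosphocholine from glycerophosphocholine. In the brain, Enpp6 is known as a marker of newly forming oligodendrocytes. Extracellular ATP and adenosine act on hair cells, supporting cells and the lateral wall of the cochlea.

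The array reads each gene through several probes of 60 bases, and a few of them carry the results below. The first set shows the stretch in which the probes of Enpp1, Enpp2 and Enpp3 were most alike, a part of the coding sequence that holds the codon of the catalytic threonine. Capitals mark the 36 of 59 aligned bases that were the same in all 3 genes. The Enpp1 probe, at position 791 of its transcript, lies at chr10:24389750-24389809 on the minus strand of mm9, the Enpp2 probe, at position 594, at chr15:54730443-54730502 on the minus strand, and the Enpp3 probe, at position 684, at chr10:24529660-24529719 on the minus strand.
Enpp1 791: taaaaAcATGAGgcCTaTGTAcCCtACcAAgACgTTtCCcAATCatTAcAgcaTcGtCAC
Enpp2 594: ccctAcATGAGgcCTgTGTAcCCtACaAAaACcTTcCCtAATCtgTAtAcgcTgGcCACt
Enpp3 684: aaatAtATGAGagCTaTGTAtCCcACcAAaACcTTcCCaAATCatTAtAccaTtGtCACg
Without gaps, the Enpp1 and Enpp3 probes matched at 46 of 59 bases (78%), which was the closest match between any probes of different members. The 3 probes nonetheless read 3 patterns. At 791 of Enpp1 the mean signal was 445.2 on apex arrays, 448.7 on middle arrays and 419.5 on base arrays. At 594 of Enpp2 it was 1196, 880.7 and 793, and at 684 of Enpp3 it was 21.4, 31.6 and 38.2. This Enpp3 probe was dim, with 0 apex arrays and 2 of the 4 middle arrays well above background. Set against the lowest signal above background on each apex array, or its own signal where higher, its base was 1.44-fold over the apex.

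The second set is shown because the probes of Enpp6 did not move alike. The first lies at chr8:48072496-48072555, the next at chr8:48115890-48115949 and the one at position 1103 at chr8:48167833-48167892, all on the plus strand of mm9 and in coding sequence.
Enpp6 217: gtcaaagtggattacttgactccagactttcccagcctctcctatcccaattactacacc
Enpp6 407: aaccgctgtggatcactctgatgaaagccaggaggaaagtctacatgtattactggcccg
Enpp6 1103: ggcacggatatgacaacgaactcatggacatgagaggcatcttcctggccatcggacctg
The closest ungapped match of the probe at 217 to any probe of another member was 57.1%, over 42 bases of an Enpp3 probe.

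Enpp6 (chromosome 8, 8 probes between 48072496 and 48179543 of mm9) had its highest signal in the base. Its gene signal was 32.9, 34.9, 39.8 and 44.3 on the 4 apex arrays, 69.4, 96.8, 89.9 and 106.9 on the middle arrays, and 478.2, 493.7, 380.9 and 517.2 on the base arrays. The 3 groups did not overlap, and the middle arrays lay between the others. The means were 38.0 ± 5.13 on apex arrays, 90.7 ± 15.9 on middle arrays and 467.5 ± 59.9 on base arrays (SD, n = 4), so that the base stood 12.3-fold over the apex and 5.18-fold over the middle, and the middle 2.38-fold over the apex. These sizes moved with the processing, and the apex-minus-base difference of -3.62 on the log2 scale was -2.09 with normexp background correction and -2.18 from the mean linear signal of the probes.

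**Figure D1:**
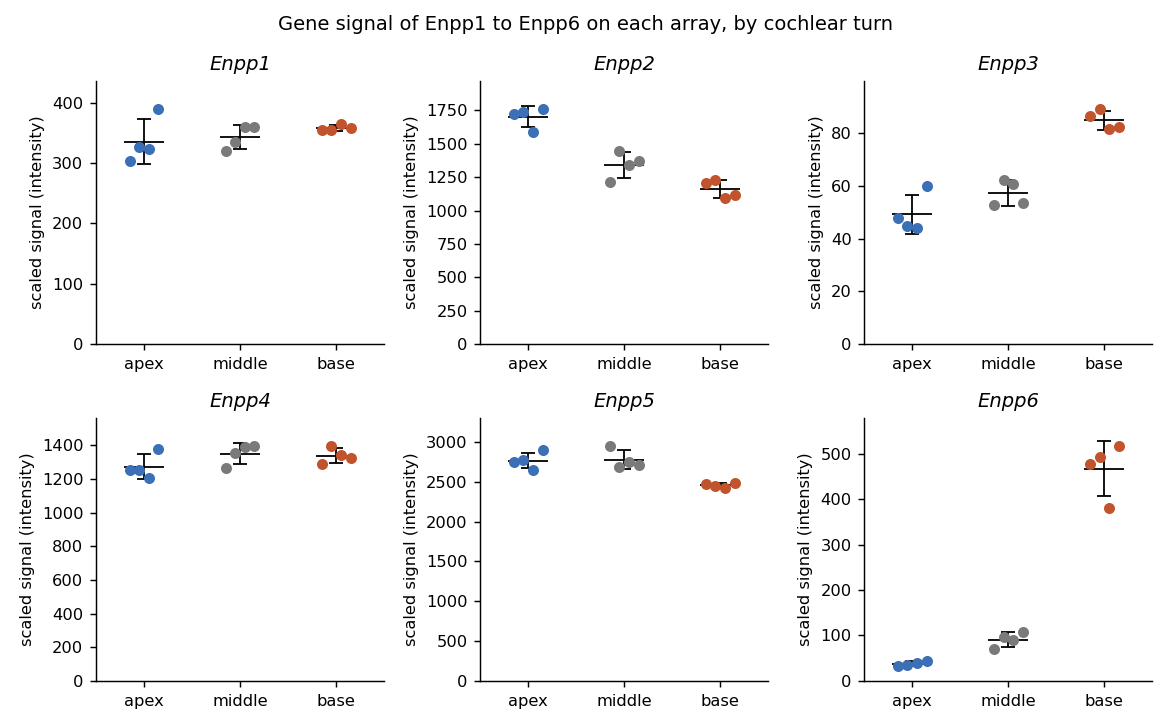
Scaled signal of the 6 genes on each array, by turn; each panel has its own axis from 0, points are arrays, and the bars give the mean and SD of 4 arrays. The Enpp6 groups are apart, with 380.9 as the lowest base array against 106.9 as the highest middle array, while the Enpp1 and Enpp4 groups overlap.

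That gene signal mixes probes of unlike behaviour. The probe at 217 read 577.9 to 669.4 on apex arrays, 638.9 to 692.9 on middle arrays and 661.2 to 780.9 on base arrays, so that the groups overlapped and the base mean was 1.19-fold that of the apex. The other 7 probes all had their lowest group in the apex and their highest in the base. The probe at 1103 was well above background on all 12 arrays and read 141.5 to 184.2 on apex arrays, 207.0 to 328.1 on middle arrays and 873.2 to 1273 on base arrays, a 6.80-fold difference between base and apex. At positions 407, 943 and 2299 no apex array was well above background, and there the base was 12.3-fold, 11.9-fold and 15.1-fold over a floor level. This level was the lowest signal that counted as above background on each apex array, or the probe's own signal where that was higher. That lowest signal is taken over all probes of an array, so these folds are not strict lower bounds for a probe. The probes at 519, 648 and 772 were above background on 2, 1 and 1 of the apex arrays, where the same rule gave 12.8-fold, 12.8-fold and 15.6-fold. At 648 every apex signal lay over that lowest signal, so its 12.8-fold is the measured difference. Base over middle ran from 4.06-fold to 7.83-fold over the 4 probes above background on all middle arrays. By the same rule it was 6.60-fold, 6.31-fold and 8.81-fold at 407, 943 and 2299, which were above background on 3 of the 4. Without the probe at 217, the gene signal was 21.8 to 30.0 on apex arrays, 50.4 to 81.8 on middle arrays and 352.1 to 491.2 on base arrays, and the apex-minus-base difference on the log2 scale was -4.11.

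**Figure D2:**
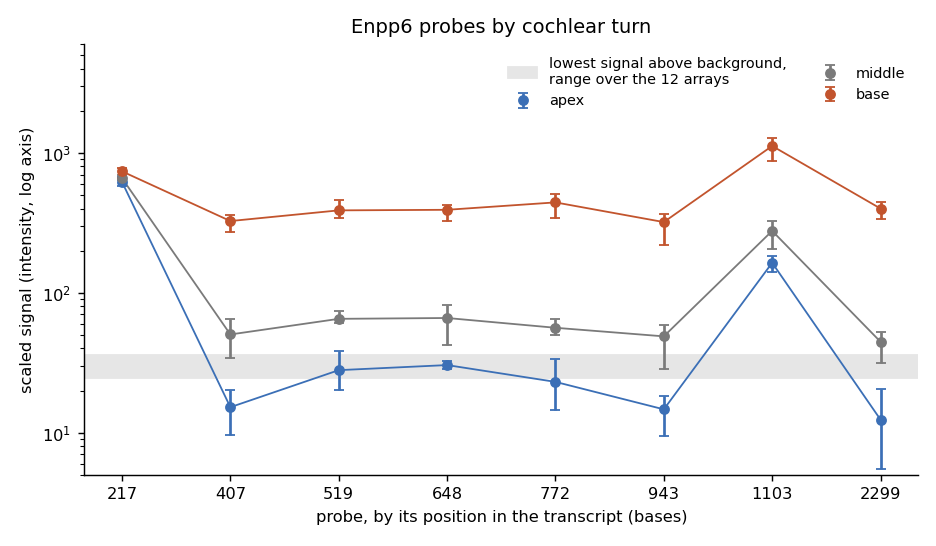
Mean scaled signal (log axis) of each Enpp6 probe in the 3 turns, ordered by position in the transcript; bars span the lowest to the highest of 4 arrays, and the grey band is the range over the 12 arrays of the lowest signal above background. The probe at 217 reads alike in all turns, and the other 7 separate base, middle and apex, with most apex values in or under the band.

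Of 10 listed oligodendrocyte genes on the array, 0 were called between apex and base by limma (1 at an unadjusted p under 0.05, and 0 by the analysis of variance without moderation). Of all genes, 39.2% were called in that comparison. The summed signal of the 10 listed genes was 474.0 to 1124 on apex arrays, 563.1 to 704.1 on middle arrays and 472.8 to 602.7 on base arrays. The value of 1124 was that of apex sample 3 alone, and the other apex arrays read 474.0 to 553.8. Mog, a myelin protein of oligodendrocytes, averaged 129.3, 138.3 and 129.7 in apex, middle and base. One listed gene, the myelin-associated Bcas1, was called for middle over base (11.6% of all genes), opposite to Enpp6. Its means were 136.2, 154.5 and 116.3 in apex, middle and base (log2 0.42 for middle minus base, adjusted p = 0.012). For the lineage factors Olig1 and Olig2 and for the receptor Gpr17, no probe was well above background on all 4 arrays of any turn. Among the marker lists that ran toward the base, as both Enpp6 and Enpp3 did, were those of the spiral ligament fibrocyte, with 6 of 8 genes called higher in the base (21.6% of all genes) and 1 in the apex and summed signals of 291500 to 322800 on apex arrays, 389600 to 436800 on middle arrays and 564600 to 632800 on base arrays, and of cartilage, with 5 of 8 higher in the base and 1 in the apex and summed signals of 2052 to 2189, 2038 to 2384 and 3635 to 4266. Named after their values were seen, the cartilage proteoglycan Acan averaged 132.0, 204.2 and 805.6, and Chad, a cartilage matrix protein, 141.2, 235.0 and 576.8. They do not stand for the whole cartilage list, in which 1 gene was called toward the apex and 2 were not called. The part of these lists in the Enpp6 and Enpp3 signals was not tested.

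Enpp2 (chromosome 15, 22 probes between 54670921 and 54751241), the autotaxin gene, ran the other way. It read 1720, 1740, 1584 and 1758 on the apex arrays, 1213, 1447, 1338 and 1369 on the middle arrays and 1204, 1227, 1094 and 1116 on the base arrays. The apex lay above all arrays of the other turns, whereas the lowest middle array fell within the base. The means were 1701 ± 79.4, 1342 ± 97.7 and 1160 ± 65.3 (SD, n = 4). The apex was 1.47-fold over the base (log2 0.55, 95% interval 0.41 to 0.70, adjusted p = 9.2e-05) and 1.27-fold over the middle (adjusted p = 0.0096), and the middle was 1.16-fold over the base (adjusted p = 0.044). In the comparison of apex and base, 39.2% of all 19505 genes were called, 17.6% higher in the apex. Between apex and middle 12% were called (4.42% toward the apex and 7.61% toward the middle) and between middle and base 20.9%. The call between middle and base was kept without apex sample 3 or middle sample 1 and lost when any other single array was left out, with adjusted p values from 0.025 to 0.11 over the 12 fits. Scaled to the spike-in probes, which moved the median of all genes by -0.49 between apex and base, Enpp2 was still above the base in the apex, by log2 0.065, but not called, its apex-minus-middle difference fell from 0.34 to 0.13 and was not called, and its difference between middle and base turned to -0.063. The call between apex and middle was also lost with the median of the probes, at 0.24 (adjusted p = 0.067, against 0.0034 to 0.35 over the alternatives).

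The probes of Enpp2 agreed in direction. Of the 22, 21 were called with the apex above the base, as were 18% of all probes, and the last, at position 1057, was near background in middle and base with means of 57.6, 33.8 and 32.4. Between apex and middle, 11 of the 22 were called, all toward the apex (3.04% of all probes, with 2.86% toward the middle), and between middle and base 4 were (7.76% of all probes higher in the middle). These were all of the probes of Enpp1 to Enpp5 called between apex and middle, and their number fell to 6 without apex sample 1, 4 without apex sample 2 and 7 without middle sample 4. Probes of one gene read the same RNA and are not replicates. The difference shrank along the transcript. The first probe, at position 45, read 568.3 to 700.9 in the apex and 332.4 to 388.8 in the base, a 1.83-fold difference, against 1.23-fold at position 2010, with 2406 to 2824 and 1884 to 2315. The last, at position 2685, read 8894 to 10830 and 6859 to 8410, a 1.34-fold difference. Their sequences lie at chr15:54751182-54751241 and chr15:54670921-54670980 on the minus strand, both coding.
Enpp2 45: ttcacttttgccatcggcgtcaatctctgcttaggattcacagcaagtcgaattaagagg
Enpp2 2685: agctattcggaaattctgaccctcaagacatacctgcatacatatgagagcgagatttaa
Over the first 11 probes the mean log2 difference of apex minus base was 0.70 and over the last 11 it was 0.40.

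A like tilt was present over the whole array. In 8174 genes with 8 or more probes, the apex-minus-base difference of the first part of the probes minus that of the second part had a median of 0.097 on the log2 scale, with quartiles of -0.010 and 0.20. Against that, Enpp2 stood at 0.30, Enpp1 at 0.23, Enpp3 at 0.48 and Enpp6 at 1.13, all above the upper quartile. The value of Enpp6 comes mostly from the probe at 217, which lies in the first part. Its apex-minus-base difference was -0.25, and the other probes of that part, at 407, 519 and 648, had -4.47, -3.83 and -3.68. The mean over the second part was -4.19. Most apex readings of the Enpp6 probes after the first were also not well above background. Whether RNA length or labeling differed between the slides was not tested.

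**Figure D3:**
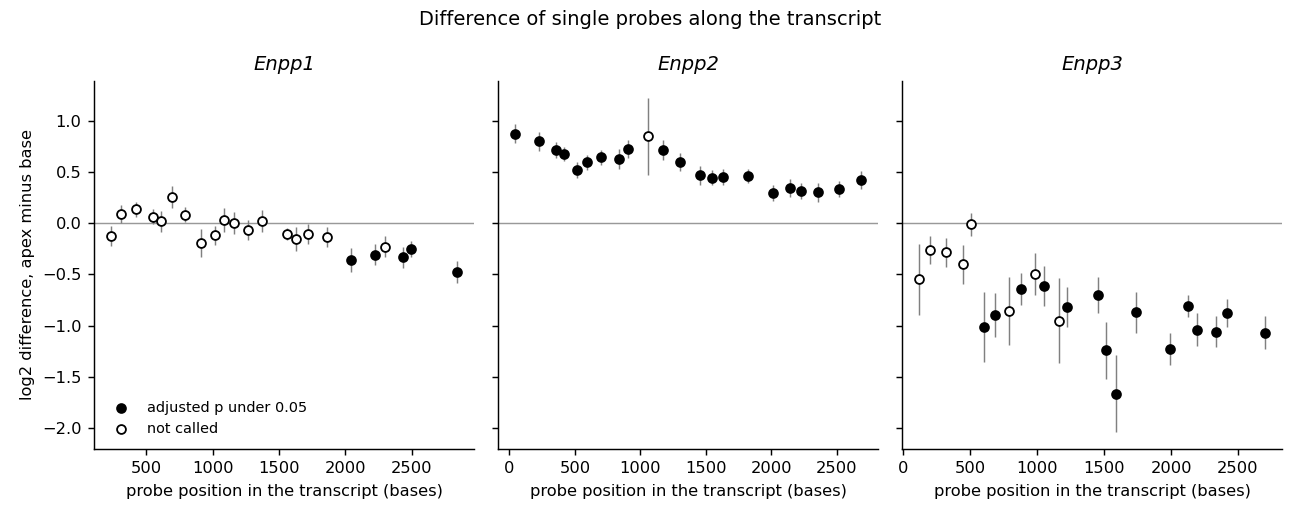
Apex-minus-base log2 difference of each probe of Enpp1, Enpp2 and Enpp3 against its position in the transcript; bars are standard errors, and filled points have an adjusted p under 0.05. Enpp2 falls from 0.87 at its first probe to about 0.3 to 0.4 at its last, Enpp3 lies furthest from 0 in its later probes, and the called Enpp1 probes sit at the 3′ end.

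Among the members that cleave nucleotides, Enpp3 (chromosome 10, 23 probes between 24493672 and 24555881) was higher in the base. Its gene signal was dim, with 47.9, 44.9, 44.0 and 59.8 on the apex arrays, 52.6, 62.4, 60.6 and 53.3 on the middle arrays and 86.5, 89.0, 81.4 and 82.3 on the base arrays. Every base array lay above all others, and apex and middle overlapped. The means were 49.1 ± 7.31, 57.2 ± 4.98 and 84.8 ± 3.60 (SD, n = 4). The base was 1.74-fold over the apex (log2 -0.80 for apex minus base, 95% interval -1.01 to -0.58, adjusted p = 0.00011) and 1.49-fold over the middle (adjusted p = 0.0029), in comparisons where 21.6% and 9.23% of all genes were higher in the base. Between apex and middle the difference of -0.23 was not called (adjusted p = 0.14, 95% interval -0.44 to -0.01). It was called without apex sample 4, at -0.33, with scaling to the spike-in probes, at -0.44, and from only those probes above background on all 12 arrays, at -0.28.

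Of the 23 Enpp3 probes, 15 were called higher in the base than in the apex (16.4% of all probes) and 8 than in the middle (6.02%). All 23 had their apex mean below that of the base on the log2 scale, and over the 14 that were above background on all apex arrays the difference ran from -0.0090 to -1.23. The probe at 506 differed least, with 246.4 to 356.2 in the apex and 267.3 to 315.7 in the base. At 196 the base was 1.20-fold over the apex and not called, with 267.2 to 310.3 in the apex and 335.2 to 352.6 in the base, which did not overlap. At position 1995 the apex read 52.3 to 93.5, the middle 83.3 to 101.9 and the base 141.0 to 158.4, with no overlap of base and the others and a 2.34-fold difference between base and apex. At position 1591 no apex and no middle array was well above background. There the floor rule used for Enpp6 gave 1.65-fold for base over apex and 1.31-fold for base over middle. On all middle arrays 12 of the 23 were above background, and on all base arrays 21.

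Enpp1 (chromosome 10, 23 probes between 24361540 and 24431671) lies beside Enpp3 on the same strand and was not called between any turns. Scaling to the median or to the spike-in probes gave a call toward the base against the apex, at log2 -0.21 and -0.59. It read 303.9, 326.2, 323.7 and 389.3 in the apex, 319.7, 334.5, 360.3 and 359.7 in the middle and 354.3, 354.7, 364.4 and 358.4 in the base. One apex array stood above every other value, and the other apex arrays lay below the base. The means were 335.8 ± 37.0, 343.5 ± 20.0 and 358.0 ± 4.68 (SD, n = 4), with a difference of apex minus base of -0.098 on the log2 scale (95% interval -0.26 to 0.064, adjusted p = 0.34). Whether Enpp1 and Enpp3 differ in their response was not tested. The high array, apex sample 4, also stood apart in its bone markers, whose summed signal was 3308, 5722, 4099 and 18380 on the 4 apex arrays, 6076 to 6954 in the middle and 9906 to 11960 in the base. Of the 11 bone genes on the array, 1 was called toward the apex (17.6% of all genes) and 1 toward the base (21.6%). Without that array Enpp1 was called toward the base, at -0.17, and with it counted, 5 of 23 probes were called, all higher in the base (16.4% of all probes) and all between positions 2045 and 2841 at the 3′ end. The last of them read 92.2 to 133.7 on apex arrays, 121.9 to 134.5 on middle arrays and 140.3 to 162.0 on base arrays.

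Enpp4 and Enpp5 are neighbours on chromosome 17, on opposite strands, and each was read by 3 probes. Enpp5, whose substrate is less well known, read 2748, 2771, 2650 and 2894 in the apex, 2949, 2688, 2747 and 2710 in the middle and 2469, 2451, 2423 and 2486 in the base. The base lay below all other arrays by a small margin, and apex and middle overlapped. The apex was 1.13-fold over the base (2766 ± 100 against 2457 ± 27.2, SD, n = 4, adjusted p = 0.012) and so was the middle (2774 ± 120, adjusted p = 0.021), but with scaling to the spike-in probes both directions turned, to log2 -0.32, called toward the base (adjusted p = 0.013), and -0.097, not called. With scaling to the median of each array the differences of 0.17 and 0.17 became 0.054 and 0.11, neither called. The call between middle and base was lost without middle sample 1 or base sample 2, with adjusted p values from 0.023 to 0.060 over the 12 fits that left out 1 array. Of its 3 probes, 2 were called for apex over base and 1 for middle over base. Enpp4 read 1205 to 1380 on apex arrays, 1263 to 1396 on middle arrays and 1287 to 1394 on base arrays, and its groups overlapped. Its difference of apex minus base was -0.073 (95% interval -0.20 to 0.049, adjusted p = 0.35), that of apex minus middle -0.086 (adjusted p = 0.31) and that of middle minus base 0.013 (adjusted p = 0.89). With scaling to the median or the spike-in probes it was called toward the base, at -0.19 and -0.56 for apex minus base, and with the spike-in probes toward the middle, at -0.30. Of its probes, 0 were called by limma (1 in any comparison at an unadjusted p under 0.05).

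**Figure D4:**
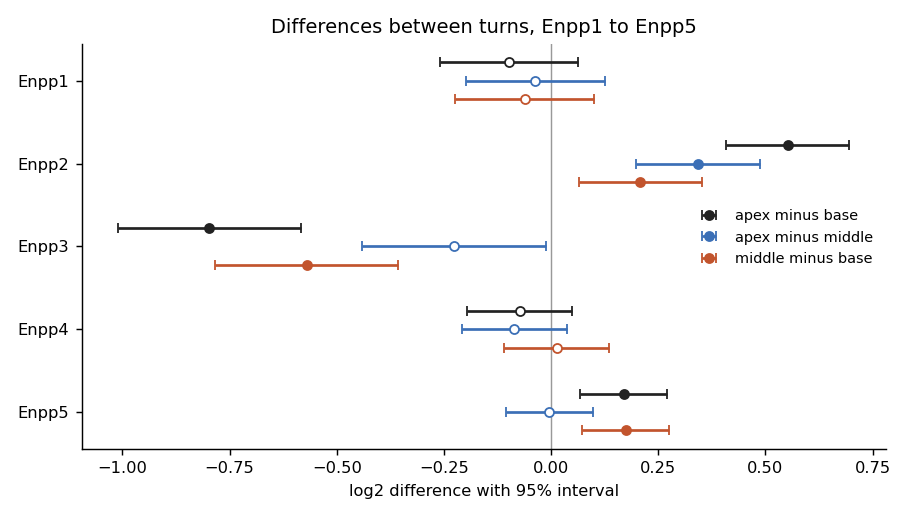
Log2 differences between turns of Enpp1 to Enpp5 with 95% intervals from the moderated fit over 12 arrays; filled points have an adjusted p under 0.05. Enpp2 lies to the right of 0 and Enpp3 to the left for apex minus base, at 0.55 and -0.80, and the intervals of Enpp1 and Enpp4 span 0 in all comparisons.

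In all, 3 of the 5 genes that could be tested were called between apex and base (39.2% of all genes), 1 of 5 for apex against middle (12%) and 3 of 5 for middle against base (20.9%). In the main fit none of them differed 2-fold, which 4.39% of all genes did for apex against base, 0.436% for apex against middle and 2.66% for middle against base. The apex-minus-base difference of Enpp3 passed 2-fold with quantile normalization, at log2 -1.007, and with scaling to the spike-in probes, at -1.284. Of their 74 probes, 43 were called between apex and base (58.1%, against 34.4% of all probes). Apex and middle parted at 11 of them (14.9% against 5.9%), and middle and base at 13 (17.6% against 13.8%). The last count was 7 without middle sample 1, middle sample 4, base sample 2 or base sample 4. Set against the other probes of its gene, no probe of Enpp1 to Enpp5 parted by 2-fold or more in limma's F test, also at an unadjusted p under 0.05 (0 probes), where 0.948% of all probes in genes with 3 or more probes did. At any size, 1 probe of Enpp1, 5 of Enpp2 and 3 of Enpp3 did (6.29% of all probes). Among the latter were the Enpp3 probes at 196 and 506, at 0.56 and 0.82 over the rest of the gene in the apex-minus-base difference.

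The seventh gene of this name on the array, Enpp7, an intestinal alkaline sphingomyelinase, was read by 4 probes, of which 1 was above background. That probe, at position 203, averaged 422.3, 422.1 and 449.9 in apex, middle and base. The gene signal, 16.3 to 18.1 in the apex and 19.5 to 25.7 in the middle, was called between these turns (adjusted p = 0.027) but rests on probes under background.

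Around the enzymes, 63 other genes of pyrophosphate, lysophosphatidic acid, nucleotide and choline handling were on the array, Enpp7 included. Between apex and base 33 of them were called (52.4%, against 39.2% of all genes). Toward the apex 11 were called (17.6% of all genes) and toward the base 22 (21.6%). Between apex and middle 12 were called (19% against 12%), and 22 for middle against base (34.9% against 20.9%). Without apex sample 1 the count between apex and middle was 6, without apex sample 2 it was 5, and without middle sample 4 it was 5. Between middle and base it was 13 without middle sample 1.

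Of 10 genes of pyrophosphate and mineral handling, 1 was called toward the apex (17.6% of all genes) and 3 toward the base (21.6%). The median apex-minus-base difference of the list was 0.039 against -0.036 over all genes. Ank, which passes pyrophosphate out of cells, read 1495 to 1729 on apex arrays, 1970 to 2234 on middle arrays and 2293 to 2388 on base arrays, with no overlap between the turns. It was 1.42-fold higher in the base than in the apex (adjusted p = 7.7e-05). Spp1, the mineral-binding matrix protein osteopontin, averaged 41600 ± 4080 on apex arrays, 59440 ± 6230 on middle arrays and 68180 ± 3670 on base arrays (SD, n = 4), a 1.64-fold difference of base over apex (adjusted p = 0.00011). Alpl, the phosphatase that degrades pyrophosphate, averaged 313.3, 296.1 and 284.7 and was not called (adjusted p = 0.77).

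Of 11 genes of lysophosphatidic acid signalling, 1 was called toward the apex (17.6% of all genes) and 6 toward the base (21.6%). The median of the list was -0.28. Lpar1, a receptor for the lipid that Enpp2 makes, read 1019 to 1130 on apex arrays, 955.3 to 972.7 on middle arrays and 1236 to 1417 on base arrays. The middle was thus its lowest turn, and the base was 1.21-fold over the apex (adjusted p = 0.0022) and 1.35-fold over the middle (adjusted p = 0.00045). Liph, a phospholipase that makes lysophosphatidic acid from phosphatidic acid, read 226.2 to 255.4 on apex arrays, 211.0 to 226.7 on middle arrays and 129.3 to 147.5 on base arrays. Like Enpp2 it fell toward the base, with the apex 1.69-fold over it (adjusted p = 4.5e-06).

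Of 18 genes that handle extracellular nucleotides and adenosine, 4 were called toward the apex (17.6% of all genes) and 6 toward the base (21.6%). The median of the list was -0.11. Entpd8, an ectonucleotidase, read 33.6 to 51.4 on apex arrays, 49.3 to 54.8 on middle arrays and 80.3 to 102.8 on base arrays, where it was 2.18-fold over the apex (adjusted p = 5.4e-05). Of its 9 probes, 5 were above background on all apex arrays, 4 on all middle arrays and 7 on all base arrays, so dim probes enter this size. Adora3, an adenosine receptor, averaged 10.5 ± 1.31, 12.1 ± 1.05 and 22.2 ± 2.19 (SD, n = 4) and was called toward the base against the apex (adjusted p = 1.9e-05), but all these means lie under the lowest signal counted as above background, and 1 of its 9 probes was above background on all apex arrays and 3 on all base arrays. Dpp4, a peptidase that binds adenosine deaminase, went the other way. It read 755.9 to 951.9 on apex arrays, 629.8 to 712.5 on middle arrays and 450.3 to 486.6 on base arrays, with no overlap, a 1.82-fold difference of apex over base (adjusted p = 9.2e-06). Nt5e, which turns AMP into adenosine, averaged 48.7, 47.0 and 54.8 and was not called between apex and base (adjusted p = 0.077).

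Of 23 genes of choline and glycerophosphocholine handling, the substrate side of Enpp6, 5 were called toward the apex (17.6% of all genes) and 7 toward the base (21.6%). The median of the list was -0.044. Gde1, a glycerophosphodiester phosphodiesterase, read 3069 to 3388 on apex arrays, 3926 to 4194 on middle arrays and 4319 to 5277 on base arrays. Chdh, the choline dehydrogenase, read 239.5 to 258.7, 236.6 to 285.5 and 328.5 to 394.1. The base was 1.46-fold over the apex in Gde1 (adjusted p = 0.00011) and 1.47-fold in Chdh (adjusted p = 0.0002). Gpcpd1, which also splits glycerophosphocholine, averaged 618.8, 638.0 and 680.5 and was not called (adjusted p = 0.26).

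**Figure D5:**
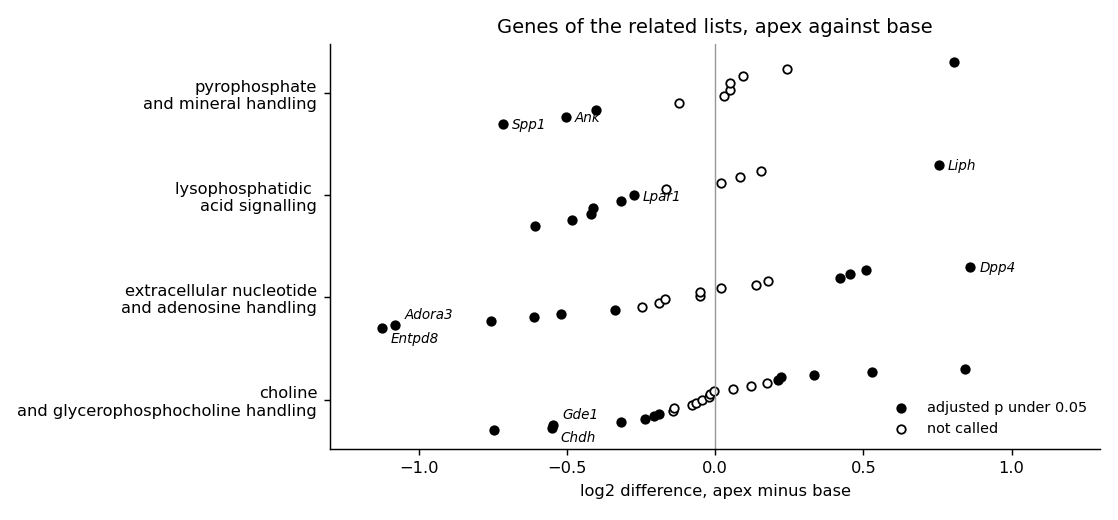
Apex-minus-base log2 difference of each gene of 4 related lists; filled points have an adjusted p under 0.05, and the genes described by name for each list are labeled. Entpd8, at -1.13, lies far to the base side and Dpp4, at 0.86, to the apex side. Some Entpd8 probes were under background. Adora3 has gene means under the background level, so its place is not a measured size.

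Marker genes of the labelled tissues were present and moved with the turns as well. In the direction of Enpp2, higher in the apex than the base as 17.6% of all genes were, stood 9 of 10 hair cell genes, with summed signals of 16170 to 20500 on apex arrays, 12530 to 14470 on middle arrays and 5102 to 7600 on base arrays, 8 of 10 spiral ganglion neuron genes (38450 to 49000, 36180 to 63240 and 8282 to 32060), with Prph called toward the base, and 5 of 8 Schwann cell genes (12080 to 14390, 13010 to 16590 and 6879 to 12060). Base sample 3 stood apart here, with sums of 32060 and 12060 against at most 14820 and 9561 on the other base arrays. It also had the lowest base signal of Enpp2 (1094), Enpp3 (81.4), Enpp5 (2423) and Enpp6 (380.9), but not of Enpp1 or Enpp4. Supporting cell genes were split, with 5 of 9 called toward the apex and 2 toward the base, and their sum was mostly that of Gjb2, a gap junction gene, with means of 98100, 112700 and 141200. The other 8 summed to 2479 to 2994, 1396 to 1650 and 1203 to 1609 in apex, middle and base. In the direction of Enpp3 and Enpp6, higher in the base than the apex as 21.6% of all genes were, stood 7 of 8 genes of the intermediate cells of the stria vascularis (64960 to 71850, 82860 to 111600 and 97330 to 121900), 5 of 7 of its marginal cells (20180 to 22020, 24020 to 28450 and 27190 to 31150), 8 of 8 macrophage genes (4078 to 4894, 4536 to 4970 and 5666 to 7014) and 6 of 9 endothelium and pericyte genes (6997 to 8871, 8583 to 10650 and 9749 to 11490), with Kdr called toward the apex. Of 6 blood genes, 0 were called by limma (1 at an unadjusted p under 0.05, and 0 without moderation), with sums of 153600 to 314600, 259000 to 366800 and 195400 to 384200. The part of these lists in the results on the Enpp genes was not tested.

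The genes most like each member were sought by Pearson's r over the 12 arrays among 16502 genes with a probe above background. The arrays fall into 3 turns, so r follows the turns first, and it is given as a description. Nearest to Enpp6 were Trp53inp2 (r = 0.999), the keratin gene Krt23 (0.997), the cytoskeletal adaptor gene Pdlim1 (0.996), the transcription factor gene Ebf3 (0.995) and the stress-response gene Nupr1 (0.995). Krt23 averaged 138.4 on apex arrays, 306.4 on middle arrays and 1112 on base arrays, and Trp53inp2 972.8, 1232 and 2037. Nearest to Enpp2 were Eps8 (r = 0.978), which codes for an actin-capping protein of stereocilia, with means of 219.5, 182.1 and 145.0, and Dpyd (0.97), a pyrimidine-degrading enzyme gene, with 342.3, 249.6 and 205.4. Nearest to Enpp3 were Ptplb (0.972) and the actin-bundling protein gene Pls3 (0.971). Nearest to Enpp1 was the osteoclast protease gene Ctsk (0.905). For Enpp4 they were Znrf2 (0.948) and Pla2g7 (0.935), and for Enpp5 Plcl2 (0.939) and Hist3h2ba (0.921).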

How the data were processed

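The arrays were SurePrint G3 Mouse Exon microarrays, hybridized with Cyanine 3-labeled RNA from 25 ng of total RNA per sample. The deposited values are fluorescence intensities, which the authors extracted from the scanned images with Agilent Feature Extraction 10.7.3.1. The processed signal used here had its background subtracted and a spatial trend corrected by that software, with no normalization between arrays, and a deposited value table held the same intensities. Probe positions are those of mm9 in the files.

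Of 172966 non-control spots per array, flags for uneven or deviating spots on 1 or more arrays led to removal from all, which removed 119 of 165984 probes and none of the 82. The 75th percentile of each array was the scaling factor, spots of a probe and probes of a gene were averaged as log2 values, and limma 3.58.1 (lmFit, eBayes; R 4.3.3) was fitted over 12 arrays with turn as the only term, with Benjamini-Hochberg adjustment over all genes or all probes within a comparison. The same fit was run on single probes and on each probe minus the mean of the other probes of its gene. The fits were tested on simulated data made from array residuals. No pseudocount and no filter on dim signals was used. The number of arrays limits the precision.

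The family, the related lists and the marker lists were chosen with earlier results of these data known. Named from the related lists were genes called with a 2-fold difference, and otherwise the 2 per list with the smallest F p. Alpl, Nt5e and Gpcpd1 were named for their known roles, and Mog, Olig1, Olig2, Gpr17, Acan and Chad from the marker lists after their values were seen. Alternatives covered normalization, background correction, probe summary and filter, flagged spots, an added constant, the analysis of variance without moderation, limma options, the arrays fitted, the sample number as a block and each array left out. Leaving out the Enpp6 probe at position 217 and keeping only probes above background on all 12 arrays were added after seeing the data. One gene among those most like Enpp1 is not reported here.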

Additional observations from a re-analysis of the deposited data

How the results depend on the processing

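With scaling to the spike-in probes the median of all genes moved by -0.49 on the log2 scale between apex and base, by -0.22 between apex and middle and by -0.27 between middle and base, and with scaling to the median by -0.12 between apex and base. Relative to the median of all genes, which such scalings cannot change, Enpp2 stood at 0.59 and Enpp5 at 0.21 for apex minus base, and with quantile normalization at 0.72 and 0.41. The share of called genes higher in the first-named turn was 44.9%, 36.7% and 55.8% for apex against base, apex against middle and middle against base, and it became 26.5%, 18.7% and 38.2% with scaling to the median, 5.13%, 2.69% and 10.3% with scaling to the spike-in probes, and 45% for middle against base with quantile normalization.

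Differences that turned were those of Enpp5 for apex minus middle, to 0.083 with quantile normalization, 0.019 with normexp, 0.051 with the median of the probes and 0.011 with the mean linear signal; of Enpp4 for apex minus base, to 0.0073 with quantile normalization, and for middle minus base, to -0.051 with scaling to the median, -0.26 with the spike-in probes, -0.0093 with normexp and -0.040 with the mean linear signal. With the spike-in probes Enpp5 turned to -0.32 for apex minus base and -0.097 for middle minus base, and Enpp2 to -0.063 for middle minus base. Without single arrays, Enpp1 for apex minus middle ran from -0.11 to 0.0086, Enpp5 from -0.026 to 0.026, and Enpp4 for middle minus base from -0.0056 to 0.045. The apex-minus-base directions of Enpp1, Enpp2 and Enpp3 held in all 27 alternatives, over which the Enpp3 difference ran from -1.28 to -0.38.

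The Enpp6 differences of -3.62 (apex minus base), -1.25 (apex minus middle) and -2.37 (middle minus base) were -2.09, -0.48 and -1.61 with normexp, -2.18, -0.48 and -1.70 with the mean linear signal, -2.95 and -0.83 for the first pair with 16 added, -4.00 and -2.78 for the first and last with the median of the probes, -4.11 and -2.65 with the spike-in probes, and -4.11 and -2.69 without the probe at 217. Without single arrays they ran from -3.72 to -3.56, -1.37 to -1.17 and -2.47 to -2.25.

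Of Enpp1 to Enpp5, 3, 1 and 3 were called in these comparisons. Between apex and middle the number was 2 with the spike-in probes, 0 with the median of the probes and 2 with probes above background on all 12 arrays. Between middle and base it was 1 with scaling to the median, with the spike-in probes and with the arrays of only the turns compared. Without single arrays the numbers ran from 3 to 4, 1 to 2 and 1 to 3. The 11 and 13 called probes of these genes for apex against middle and middle against base became 17 and 24 with quantile normalization, and the 13 became 23 with the spike-in probes. Without single arrays the ranges were 4 to 12 and 7 to 15. Related genes called went from 33 to 52 and from 12 to 26 with the spike-in probes, and without single arrays ran from 5 to 11 for apex against middle and from 13 to 22 for middle against base. Of all genes, 7645, 2346 and 4070 were called, against 15109, 7930 and 7328 with the spike-in probes and 3542 for apex against middle with scaling to the median. Without single arrays they ran from 965 to 3536 for apex against middle and from 2656 to 4755 for middle against base. By the 2-fold rule, 856, 85 and 519 genes became 311, 14 and 169 with normexp, 570, 39 and 315 with 16 added, and the 856 became 1435 with the spike-in probes. Of all probes, 1516 parted from their gene by 2-fold or more, against 396 with normexp, 766 with 16 added and 930 without base sample 2. The causes were not tested.

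Samples of the same number deviated together only weakly, with a mean correlation of 0.095 over 12 pairs (-0.037 to 0.23), against -0.031 over 36 pairs of other numbers, and the labels do not say that a number marks a mouse. With the sample number as a replicate block, the genes called were 8167, 3322 and 5060, the numbers of Enpp1 to Enpp5 called stayed at 3, 1 and 3, and no call on these 5 genes changed. Dim signals limit Enpp3, Enpp6 in the apex, and Enpp7.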
